A study of Sus scrofa with 24 samples.

Results

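Intramuscular preadipocytes were compared before adipogenic induction (IMF-0d) and after 2 days in the induction medium (IMF-2d), with 3 libraries a group. These 6 of the 24 libraries of the series were picked out by their labels, but the comparison was chosen with earlier results of these data known. Every difference is day 2 minus day 0 on the scale of log2(FPKM + 1). The study followed preadipocytes of 6-day-old Yorkshire piglets from fat lying within the back muscle longissimus dorsi (IMF) and from the subcutaneous fat of the back (BF), on days 0, 2, 4 and 8 of culture. The cells had been freed from the tissue with collagenase and grown nearly to confluence in serum-containing growth medium, which both groups share. On day 0 this medium was replaced by medium with 3-isobutyl-1-methylxanthine (IBMX), dexamethasone and insulin, so that day 2 marks the end of the exposure to all 3 agents, and later days were spent in medium with insulin and then in growth medium. The methods name 3 piglets, but the labels do not tie a replicate number to a piglet. The p-values measure the spread between libraries of a group, estimated over all 24 libraries of the series, and this spread may be technical.

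Preadipocytes are fibroblast-like cells of the connective tissue that can be turned into lipid-storing adipocytes. IBMX blocks phosphodiesterases, the enzymes that break down cyclic AMP, and so raises this messenger and the transcription driven by the factor CREB. Dexamethasone activates the glucocorticoid receptor, and insulin at high dose also acts through the receptor of IGF-1. In the classical scheme of adipogenesis these signals bring up C/EBP-beta and C/EBP-delta within hours, these factors then switch on C/EBP-alpha and PPAR-gamma, and the genes of the mature adipocyte follow. While this happens the cells give up their stretched, contractile form and remodel their matrix, and in many culture systems they pass through further rounds of division before they differentiate.

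The values were FPKM as the authors deposited them, fragments scaled to the length of the transcript and to the number of mapped fragments in the library. The 6 libraries summed to 333955 to 357861 FPKM and held 10613 to 10858 genes with at least 1 FPKM. Read counts are not part of the table, so the depth is unknown and a value of 0 is given as listed at 0. Replicates of a group correlated at Pearson's r of 0.990 to 0.994 on the log2 scale across genes, which are not independent replicates. The first principal component of the 6 libraries (55.1% of the variance) separated the days, and the other main component (15.3%) set IMF-0d replicate 3, at -19.3, apart from replicates 1 and 2, at 11.8 and 12.4. In the subcutaneous cells used below as a comparison, replicates of BF-2d correlated at 0.962 to 0.976, and replicate 3 lay between the other BF-2d libraries and day 0 for many of the genes plotted by day. The 13 markers of stromal preadipocytes in the table summed to 12241 to 12700 FPKM on day 0 and 10547 to 11771 FPKM on day 2. A large part of each sum came from the collagen COL1A1, whose values are given below. On day 2, 6 of the 13 were higher and 7 lower, DPP4 was called lower, and 1 marker stayed under 1 FPKM in all 6 libraries. PDGFRA, the defining receptor of adipose progenitors, was at 70.3, 59.2 and 50.8 FPKM on day 0 and 110.4, 109 and 97.0 FPKM on day 2. Markers of mature fat were nearly absent, since 6 of the 7 adipocyte markers in the table stayed under 1 FPKM in all 6 libraries, and ADIPOQ and LEP were listed at 0. Of 19 skeletal muscle markers 17 stayed under 1 FPKM, and MYOD1, MYF5 and MYF6, the defining regulators of myoblasts, were listed at 0 throughout. The endothelial markers summed to 7.36 to 9.48 and 6.64 to 8.68 FPKM on the respective days, with KDR listed at 0, and the immune markers summed to 7.57 to 8.10 and 4.71 to 6.28 FPKM. The nerve sheath markers summed to 40.4 to 59.0 FPKM on day 0 and 48.4 to 61.4 FPKM on day 2, nearly all of it from ERBB3, while SOX10 and NGFR stayed under 1 FPKM in all 6 libraries. The sum of the pericyte markers was 40.3 to 46.7 FPKM on day 0 and 23.5 to 34.3 FPKM on day 2, while none of the 7 tested passed the test.

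Between day 0 and day 2 the intramuscular cells changed few genes strongly. Among 16135 genes tested, 127 (0.787%) passed the study's limits, an adjusted p under 0.01 and a log2 fold change of at least 1 in size. The rises numbered 53 (0.328%) and the falls 74 (0.459%), and all 127 had libraries that did not overlap between the days. Without the limit on size, 124 genes (0.769%) rose and 406 (2.52%) fell. Over all genes tested, non-overlapping libraries were found for 2374 genes higher (14.7%) and 3320 lower (20.6%) on day 2, and the median log2 fold change was -0.01. Changes of at least 2 on the log2 scale were seen in 8 rises and 4 falls. Adjusted p-values are Benjamini-Hochberg values from limma over all genes tested. PDE4B and NR4A1 led the rises, and DES and CA4 the falls, among genes with a symbol and a mean of at least 1 FPKM. Single libraries weighed on these calls: IMF-2d replicate 2 held the highest day 2 value in 38 of the 53 rises (71.7%, against 34.2% of all 7473 genes with a change above 0), and IMF-0d replicate 3 the highest day 0 value in 42 of the 74 falls (56.8%, against 39.9% of 8401). With IMF-2d replicate 2 left out 69 genes were called, and with IMF-0d replicate 3 left out 81.

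**Figure D1:**
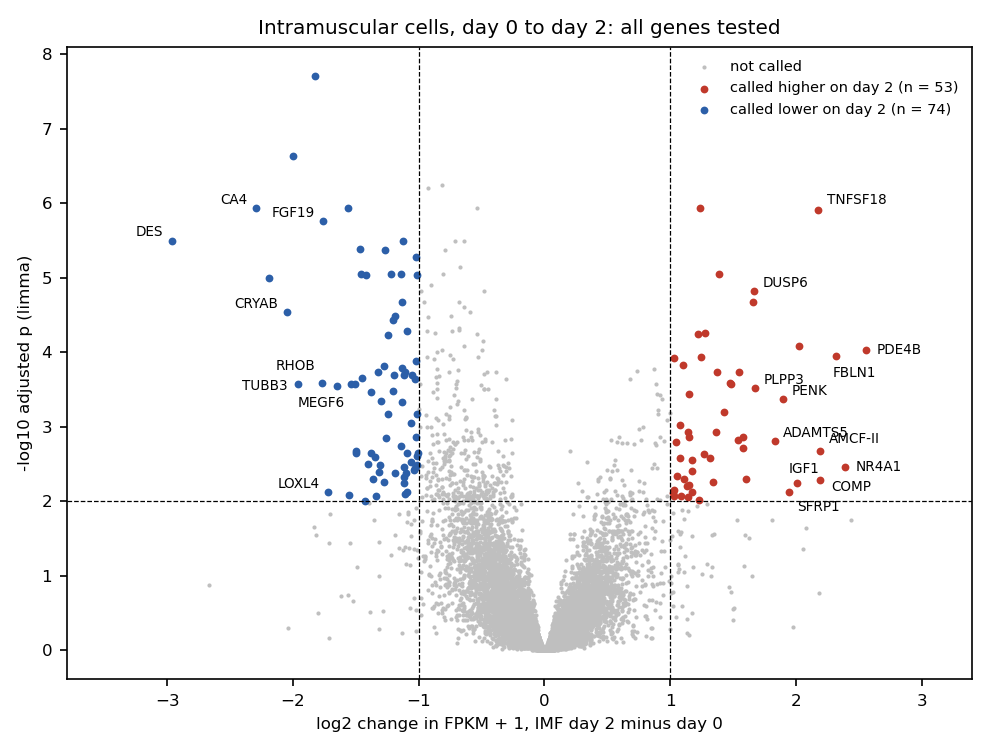
Log2 change in FPKM + 1 from day 0 to day 2 in intramuscular cells (horizontal axis) against -log10 of the limma adjusted p (vertical axis), with 1 point for each of the 16135 genes tested. Red points are the 53 rises, blue points the 74 falls, grey points genes that were not called, and dashed lines mark the limits. PDE4B lies farthest to the right at 2.56 and DES farthest to the left at -2.96 among the labelled genes.

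The largest rise belonged to PDE4B (ENSSSCG00000003805, chr6:146167262-146720105), a phosphodiesterase that degrades cyclic AMP and is itself a target of cyclic AMP signalling. Its values were 2.89, 3.29 and 2.25 FPKM on day 0 and 19.7, 34.4 and 14.1 FPKM on day 2. Each day 2 library was above each day 0 library, replicate 2 stood highest, and the ratio of the means was 8.10 (log2 fold change 2.56, SE 0.34, adjusted p = 9.43e-05). NR4A1 (chr5:17403088-17407918), an orphan nuclear receptor induced at once by cyclic AMP, had 4.92, 3.0 and 3.96 FPKM on day 0 and 20.3, 55.0 and 13.3 FPKM on day 2 (log2 fold change 2.39, SE 0.47, adjusted p = 0.00344). The day 2 libraries of NR4A1 spread widely, and without replicate 2 of that day its change was 1.83, adjusted p = 0.0285, which missed the limit on p. It passed in 1 of the 6 fits with a library left out. PER1, a clock gene that answers to both CREB and the glucocorticoid receptor, was at 4.41, 4.34 and 4.97 FPKM on day 0 and 9.62, 15.1 and 8.98 FPKM on day 2 (log2 fold change 1.10, SE 0.15, adjusted p = 0.00015). Its groups did not overlap, and without IMF-2d replicate 2 the change was 0.89, adjusted p = 0.00107, just under the limit on size.

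Of the 17 genes tested in the cyclic AMP response list, these 3 rose (0.328% over all genes) and none fell. A positive change was seen in 12, where 46.3% of all genes tested had one. The median was 0.74 on the log2 scale against -0.01 over all genes. Other members had the same order of libraries without passing. NR4A2, the sister receptor of NR4A1, had 2.61, 3.32 and 2.5 FPKM on day 0 and 6.42, 20.1 and 4.57 FPKM on day 2 (1.33, adjusted p = 0.0769), and PDE7B, another phosphodiesterase, 0.581, 0.560 and 0.308 FPKM on day 0 and 2.5, 4.98 and 1.54 FPKM on day 2 (1.35, adjusted p = 0.0274). SIK1, a kinase that restrains CREB coactivators, was listed at 0.636, 0.833 and 0.743 FPKM on day 0 and 1.90, 7.66 and 1.01 FPKM on day 2 (1.09, adjusted p = 0.256). In each of these genes the groups did not overlap, and IMF-2d replicate 2 was the highest library by a wide margin. The list's median was 0.30 without that library, with 1 call, and ranged from 0.30 to 1.15 over the 6 fits with a library left out.

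The 250 bases before the RefSeq start (Sscrofa11.1, the build of the files) of PENK, PER1 and EGR1 are shown as examples of windows that hold the core of the cyclic AMP response element. They were chosen after the matches were seen from the 6 rises with that core, which also include SFRP1, SESN1 and SPRY2, while the window of PDE4B holds none. The windows were PENK at chr4:75525247-75525496 (plus strand), PER1 at chr12:53376724-53376973 (minus strand) and EGR1 at chr2:140440579-140440828 (plus strand). Each is written 5′ to 3′ toward the gene start, with TGACG, or CGTCA where it lies on the opposite strand, in capitals.
PENK: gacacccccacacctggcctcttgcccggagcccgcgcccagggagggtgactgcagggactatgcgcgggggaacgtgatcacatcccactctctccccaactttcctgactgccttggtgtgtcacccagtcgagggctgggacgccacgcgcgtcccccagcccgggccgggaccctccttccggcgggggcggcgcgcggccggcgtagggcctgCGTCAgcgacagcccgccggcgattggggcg
PER1: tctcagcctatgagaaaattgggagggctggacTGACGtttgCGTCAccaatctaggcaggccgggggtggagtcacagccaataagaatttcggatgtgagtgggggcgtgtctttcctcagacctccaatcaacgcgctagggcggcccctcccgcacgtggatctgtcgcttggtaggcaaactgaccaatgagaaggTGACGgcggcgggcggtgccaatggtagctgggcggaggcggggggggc
EGR1: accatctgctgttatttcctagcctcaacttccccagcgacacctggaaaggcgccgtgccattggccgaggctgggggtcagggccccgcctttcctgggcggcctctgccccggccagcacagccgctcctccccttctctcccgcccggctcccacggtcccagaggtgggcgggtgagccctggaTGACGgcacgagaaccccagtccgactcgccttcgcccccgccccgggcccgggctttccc
The core stood at -31 to -27 from the start in PENK, at -61 to -57 in EGR1, and at -217 to -213, -208 to -204 and -49 to -45 in PER1. Across the windows of genes called higher, 6 of 44 (13.6%) held TGACG on either strand, against 7 of 58 (12.1%) of those called lower and 2522 of 10857 (23.2%) of all tested genes with a window, so the core was no commoner among the rises. The full element TGACGTCA, which contains the core, was in 0 of 44, 1 of 58 (1.72%) and 248 of 10857 windows (2.28%). The palindromic glucocorticoid response element was in 0 of 44, 0 of 58 and 27 of 10857 (0.249%), and the CArG box of serum response factor in 0 of 44, 1 of 58 (1.72%) and 124 of 10857 (1.14%). CATTCC, the letters read by TEAD factors, were in 5 of 44 (11.4%), 5 of 58 (8.62%) and 1037 of 10857 (9.55%). These matches describe the letters of short windows and say nothing of binding.

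Glucocorticoid targets rose in part. CRISPLD2, a secreted protein induced by glucocorticoids, was at 8.51, 6.29 and 7.19 FPKM on day 0 and 25.5, 25.4 and 24.5 FPKM on day 2 (log2 fold change 1.66, SE 0.19, adjusted p = 2.09e-05). The day 2 libraries were nearly equal and all lay above those of day 0. SGK1, the serum- and glucocorticoid-regulated kinase, was at 6.84, 9.25 and 7.56 FPKM on day 0 and 24.5, 29.3 and 21.1 FPKM on day 2 (log2 fold change 1.55, SE 0.22, adjusted p = 0.000185), again without overlap. With PER1 these made 3 rises among 17 tested (0.328% over all genes), and 14 of the 17 had a positive change (46.3% over all genes) with a median of 0.29, which was 0.16 without IMF-0d replicate 3, and 2 or 3 members were called over the 6 fits with a library left out. FKBP5, a chaperone of the glucocorticoid receptor and a usual reporter of its activity, was at 18.5, 18.8 and 14.3 FPKM on day 0 and 21.2, 15.9 and 18.7 FPKM on day 2 (0.11, adjusted p = 0.898), and its groups overlapped. KLF9, another frequent target, had 13.3, 12.8 and 10.003 FPKM on day 0 and 9.75, 8.61 and 8.75 FPKM on day 2 (-0.37, adjusted p = 0.396). CEBPD, which belongs to the same response, was at 18.7, 16 and 26.6 FPKM on day 0 and 40.0, 36.4 and 20.7 FPKM on day 2 (0.62, adjusted p = 0.196), where replicate 3 of day 2 lay among the day 0 values.

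Among 13 immediate early genes tested, 1 rose (0.328% over all genes). This was EGR1, a zinc finger factor of the mitogen response, which went from 19.7 ± 3.72 to 42.3 ± 2.82 FPKM (SD, n = 3; log2 fold change 1.08, SE 0.18, adjusted p = 0.000953). Its 6 values were 21.5, 15.4 and 22.1 FPKM on day 0 and 43.1, 44.6 and 39.1 FPKM on day 2, with no overlap, and without IMF-0d replicate 2 the log2 fold change was 0.92, under the limit on size. FOS had 1.52, 1.02 and 1.15 FPKM on day 0 and 3.01, 4.02 and 2.43 FPKM on day 2 (0.88, adjusted p = 0.00177), which passed the limit on p but not that on size. Of the 16 clock genes tested, PER1 and BHLHE41 rose (0.328% over all genes). BHLHE41, a repressor of the clock, was at 4.32, 3.33 and 2.84 FPKM on day 0 and 9.98, 7.15 and 9.72 FPKM on day 2 (log2 fold change 1.15, SE 0.24, adjusted p = 0.00602), and its call was lost whichever of the 6 libraries was left out (adjusted p 0.0104 to 0.0374). BMAL1, an activator of the clock, had 3.46, 3.01 and 2.42 FPKM on day 0 and 1.41, 1.56 and 1.85 FPKM on day 2 (-0.60, adjusted p = 0.1). The day 2 values of BMAL1 all lay under those of day 0, as did those of NFIL3, a repressor of clock output, at 17.3, 18.2 and 18.4 FPKM on day 0 and 9.84, 13.1 and 9.0 FPKM on day 2 (-0.72, adjusted p = 0.107).

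In the insulin and IGF list the ligand IGF1 rose and the inhibitor STC2 fell, and each call held in 1 of the 6 fits with a library left out. IGF1, the growth factor made by stromal cells in response to many hormones, was at 18.6, 17.8 and 14.2 FPKM on day 0 and 77.7, 117 and 38.3 FPKM on day 2 (log2 fold change 2.01, SE 0.43, adjusted p = 0.00574). Replicate 2 of day 2 was again highest and replicate 3 lowest, without overlap with day 0, and the change was 1.65, adjusted p = 0.0463 without replicate 2, and the call held in 1 of those 6 fits. STC2, which inhibits the IGF-releasing protease PAPPA, was at 26.1, 27.4 and 25.1 FPKM on day 0 and 9.09, 7.68 and 11.3 FPKM on day 2 (log2 fold change -1.40, SE 0.27, adjusted p = 0.00315) and kept its call in 1 of those 6 fits (adjusted p 0.00551 to 0.025). PAPPA itself was at 12, 11.2 and 8.67 FPKM on day 0 and 20.8, 21.2 and 20.3 FPKM on day 2 (0.92, adjusted p = 0.228), and PIK3R1, the regulatory subunit of PI3-kinase, at 5.25, 5.97 and 4.19 FPKM on day 0 and 10.5, 9.76 and 11.4 FPKM on day 2 (0.92, adjusted p = 0.00139), the latter past the limit on p alone. IGFBP4, an IGF-binding protein that PAPPA cleaves, had 48.9, 39.9 and 54.5 FPKM on day 0 and 134, 227 and 88.7 FPKM on day 2 (1.54, adjusted p = 0.0177). The receptors INSR and IGF1R had log2 fold changes of 0.28 (adjusted p = 0.491) and 0.22 (adjusted p = 0.548). In all, 1 of 16 tested members rose (0.328% over all genes), 1 fell (0.459%), and the median was 0.25.

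Of 25 growth factor ligands and receptors tested, FGF2 and FGF18 rose (0.328% over all genes), and outside that list DUSP6 rose. DUSP6, the phosphatase that switches off ERK, was at 13.6, 11.6 and 13.4 FPKM on day 0 and 43.5, 46.1 and 39.2 FPKM on day 2 (log2 fold change 1.66, SE 0.19, adjusted p = 1.51e-05). The 3 libraries of each day lay close together and far from those of the other. FGF2 was at 34.2, 42.5 and 26.4 FPKM on day 0 and 79.4, 80.6 and 67.4 FPKM on day 2 (log2 fold change 1.14, SE 0.26, adjusted p = 0.00876) and FGF18 at 1.0, 0.472 and 0.912 FPKM on day 0 and 2.45, 2.91 and 2.57 FPKM on day 2 (log2 fold change 1.03, SE 0.14, adjusted p = 0.000118). The median over the list was 0.17, and 0.07 without IMF-2d replicate 2. FGF2 lost its call whichever library was left out (adjusted p 0.0104 to 0.0594), and FGF18 fell under the limit on size without replicate 2 of either day (0.89 and 0.98). FGF19, better known as an intestinal hormone of bile acid control, fell from 5.54 ± 0.763 to 0.938 ± 0.302 FPKM (SD, n = 3; log2 fold change -1.76, SE 0.17, adjusted p = 1.75e-06). VEGFA, the main growth factor of vessels, had 47.9, 52.1 and 40.9 FPKM on day 0 and 32.5, 35 and 30.1 FPKM on day 2 (-0.51, adjusted p = 0.446).

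Genes of the extracellular matrix gave several of the largest rises. FBLN1 (chr5:3839498-3927178), a glycoprotein of elastic fibres and basement membranes, was at 9.12, 8.20 and 10.6 FPKM on day 0 and 49.3, 58.3 and 44.3 FPKM on day 2 (log2 fold change 2.32, SE 0.32, adjusted p = 0.000114), a ratio of means of 5.44. COMP, a thrombospondin of cartilage and tendon that binds collagen, was at 139.9, 113 and 153 FPKM on day 0 and 591, 724 and 555 FPKM on day 2 (log2 fold change 2.19, SE 0.46, adjusted p = 0.00521). Both had day 2 libraries far above those of day 0, but COMP lost its call whichever library was left out (adjusted p 0.015 to 0.0302). THBS4, a relative of COMP, was at 18.5, 19.7 and 20.4 FPKM on day 0 and 49.2, 46.9 and 46.4 FPKM on day 2 (log2 fold change 1.24, SE 0.11, adjusted p = 1.15e-06), where the change was small and the libraries nearly equal within each day. These were the 3 rises among the 27 matrix glycoproteins and proteoglycans tested (0.328% over all genes), and 2 or 3 were called over the 6 fits with a library left out. The list had no fall, 14 positive and 13 negative changes (46.3% and 52.1% over all genes), and a median of 0.26, which was 0.17 without IMF-0d replicate 3. PRELP, a small leucine-rich proteoglycan, had 45.8, 45.2 and 44.4 FPKM on day 0 and 112, 113 and 120.5 FPKM on day 2 (1.33, adjusted p = 0.0284).

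COL12A1, which joins collagen fibrils to the matrix around them, was the only collagen of 20 tested to pass (0.787% over all genes). It was at 199, 196 and 147 FPKM on day 0 and 426, 407 and 428 FPKM on day 2 (log2 fold change 1.23, SE 0.28, adjusted p = 0.00968), without overlap, and lost its call whichever library was left out (adjusted p 0.0235 to 0.059). The abundant fibrillar collagen COL1A1 had 5944, 5942 and 6518 FPKM on day 0 and 4790.0, 4518 and 5206 FPKM on day 2 (-0.34, adjusted p = 0.514), and the median of the list was -0.05, and 0.02 without IMF-2d replicate 2. COL4A1, a collagen of the basement membrane that adipocytes lay down, had 89.2, 95.0 and 95.8 FPKM on day 0 and 159.7, 181 and 158 FPKM on day 2 (0.83, adjusted p = 0.0829). Among 19 proteases and inhibitors, ADAMTS5, which cuts aggrecan and versican, rose (0.328% over all genes) and MMP23B, a membrane-anchored metalloprotease, fell (0.459%). ADAMTS5 was at 5.02, 4.38 and 3.35 FPKM on day 0 and 18.3, 20.8 and 14.1 FPKM on day 2 (log2 fold change 1.83, SE 0.33, adjusted p = 0.00157) and MMP23B at 32.0, 31.9 and 37.4 FPKM on day 0 and 15.1, 14.1 and 15.2 FPKM on day 2 (log2 fold change -1.14, SE 0.18, adjusted p = 0.000465), both without overlap. ADAMTS5 missed the limit on p without IMF-2d replicate 2 (1.72, adjusted p = 0.0131) and without IMF-0d replicate 3 (1.70, adjusted p = 0.0119). LOXL4, a lysyl oxidase that crosslinks collagen, was at 38.5, 37.6 and 48.4 FPKM on day 0 and 11.4, 10.8 and 13.3 FPKM on day 2 (log2 fold change -1.72, SE 0.38, adjusted p = 0.0076), and its call was lost in all 6 fits with a library left out (adjusted p 0.0189 to 0.04).

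HAS2, which makes hyaluronan, rose to 13.1 ± 3.77 FPKM on day 2 from 4.19 ± 1.07 FPKM on day 0 (SD, n = 3). The values were 5.41, 3.48 and 3.67 FPKM on day 0 and 11.7, 17.4 and 10.2 FPKM on day 2 (log2 fold change 1.43, SE 0.23, adjusted p = 0.000631), and it was the 1 call among 15 genes of hyaluronan and retinoid metabolism (0.787% over all genes). ALDH1A3, which makes retinoic acid, had 67.7, 80.3 and 54.6 FPKM on day 0 and 151, 163 and 146 FPKM on day 2 (1.19, adjusted p = 0.077). RARRES2, the adipokine chemerin, fell from 12 ± 2.21 to 3.45 ± 0.368 FPKM (SD, n = 3; log2 fold change -1.54, SE 0.23, adjusted p = 0.000266). PLPP3, a phosphatase of extracellular lysophosphatidic acid, was among the most abundant of the rising genes at 104, 84.9 and 86.1 FPKM on day 0 and 307, 334 and 247 FPKM on day 2 (log2 fold change 1.67, SE 0.25, adjusted p = 0.000301).

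In the TGF-beta and BMP list, the coreceptor TGFBR3 was the 1 rise among 24 tested (0.328% over all genes), with a median of 0.16, which was 0.29 without IMF-2d replicate 3. TGFBR3 was at 20.005, 17.4 and 17.1 FPKM on day 0 and 39.4, 47.7 and 39.9 FPKM on day 2 (log2 fold change 1.17, SE 0.26, adjusted p = 0.00745), a call that held in 0 of the 6 fits with a library left out (adjusted p 0.0189 to 0.0433). INHBE, an activin subunit, had 2.80, 3.99 and 4.03 FPKM on day 0 and 0.478, 1.01 and 0.272 FPKM on day 2 (log2 fold change -1.55, SE 0.35, adjusted p = 0.00834) and likewise held in 0 of 6 (adjusted p 0.0154 to 0.043). Of 17 WNT ligands and inhibitors, 1 rose (0.328% over all genes). This was SFRP1, a secreted WNT antagonist, with 13.8, 10.8 and 10.1 FPKM on day 0 and 42.7, 64.9 and 37.7 FPKM on day 2 (log2 fold change 1.95, SE 0.43, adjusted p = 0.00756), a call again lost whichever library was left out (adjusted p 0.0149 to 0.05). Of the list, 4 members passed the limit on p as falls (2.52% over all genes) and none of them that on size. WNT2B and WIF1 were among these, at -0.79 (adjusted p = 4.25e-06) and -0.90 (adjusted p = 0.00128). The median of the list was 0.0051.

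Among the other large rises were TNFSF18, PENK and AMCF-II. TNFSF18, the ligand of the immune receptor GITR, had the smallest adjusted p among the 12 largest rises, with 2.11, 2.52 and 1.65 FPKM on day 0 and 15.5, 9.79 and 14.1 FPKM on day 2 (log2 fold change 2.18, SE 0.20, adjusted p = 1.23e-06). PENK, the precursor of enkephalins, was at 1.22, 0.816 and 1.17 FPKM on day 0 and 6.78, 8.35 and 5.23 FPKM on day 2 (log2 fold change 1.90, SE 0.30, adjusted p = 0.000423). Both started from low levels and their groups stood clearly apart. AMCF-II, a pig chemokine of the CXC family, was at 83.9, 70.7 and 62.1 FPKM on day 0 and 280.3, 597 and 218 FPKM on day 2 (log2 fold change 2.19, SE 0.41, adjusted p = 0.00214), with replicate 2 of day 2 far above the others, and the change was 1.77, adjusted p = 0.0213 without that library and 2.09, adjusted p = 0.0134 without IMF-0d replicate 3. MASP1, a protease of the lectin pathway of complement, was at 4.33, 4.77 and 4.68 FPKM on day 0 and 12.7, 16.8 and 11.3 FPKM on day 2 (log2 fold change 1.37, SE 0.24, adjusted p = 0.00117), and the change was 1.22, adjusted p = 0.0122 without IMF-2d replicate 2. PENK and MASP1 were the 2 rises among 11 complement and stromal secreted genes (0.328% over all genes). DPP4, a surface marker of early progenitors, fell with 6.94, 6.98 and 5.17 FPKM on day 0 and 2.10, 1.87 and 2.32 FPKM on day 2 (log2 fold change -1.24, SE 0.16, adjusted p = 5.92e-05).

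Desmin gave the largest fall of all genes with a symbol. DES (ENSSSCG00000020785, chr15:121428539-121435426), an intermediate filament of muscle and of contractile stromal cells, was at 29.6, 36.2 and 45.3 FPKM on day 0 and 3.96, 3.03 and 4.56 FPKM on day 2. The lowest day 0 library stood far above the highest day 2 library, and the ratio of means was 9.62 (log2 fold change -2.96, SE 0.29, adjusted p = 3.18e-06). DES accounted for nearly the whole sum of the muscle markers, which was 30.7 to 46.8 FPKM on day 0 and 3.44 to 5.35 FPKM on day 2, while 13 of the 19 were listed at 0 in all 6 libraries. In bulk RNA, fewer cells of a kind and less RNA in each cell cannot be told apart. CNN1, the smooth muscle calponin, was at 41.3, 48.9 and 58.5 FPKM on day 0 and 16.2, 16.4 and 20.7 FPKM on day 2 (log2 fold change -1.42, SE 0.33, adjusted p = 0.00987), and TGFB1I1 (Hic-5), a focal adhesion protein, at 88.5, 79.7 and 96.7 FPKM on day 0 and 42.8, 39.4 and 47.6 FPKM on day 2 (log2 fold change -1.01, SE 0.19, adjusted p = 0.0025). CNN1 was lost whichever library was left out (adjusted p 0.0205 to 0.0547), and TGFB1I1 was kept in 2 of 6 such fits and in neither fit with rescaled libraries.

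These were the 3 falls among the 19 contractile and myofibroblast genes tested (0.459% over all genes). In this list 17 changes were negative (52.1% over all genes), 16 genes had non-overlapping libraries that were lower on day 2 (20.6% over all genes), and the median was -0.70. ACTA2, smooth muscle actin, was at 1698, 1841 and 2128 FPKM on day 0 and 848, 786 and 1086 FPKM on day 2 (-1.07, adjusted p = 0.273), and TAGLN, its binding partner transgelin, at 1078, 1093 and 1379 FPKM on day 0 and 578, 555 and 675 FPKM on day 2 (-0.97, adjusted p = 0.239). ACTG2, another smooth muscle actin, had 125, 147 and 171 FPKM on day 0 and 38.5, 43.8 and 51.5 FPKM on day 2 (-1.70, adjusted p = 0.0146). In all 3 the groups did not overlap and the fit across 24 libraries did not call them. With 1 library left out, 1 or 2 members were called and the median stayed between -0.80 and -0.65. The sum of the pericyte markers moved the same way, as given above, and its part in the result was not tested.

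Further cytoskeletal and stress proteins were among the 12 largest falls. FLNC, a filamin that crosslinks actin, was at 45.4, 39.2 and 47.9 FPKM on day 0 and 13.8, 13.5 and 17.3 FPKM on day 2 (log2 fold change -1.51, SE 0.23, adjusted p = 0.000266), and RHOB, a small GTPase of actin and endosomes, at 17.7, 16.3 and 19.8 FPKM on day 0 and 4.58, 4.56 and 4.46 FPKM on day 2 (log2 fold change -1.77, SE 0.26, adjusted p = 0.000258). TUBB3, a beta-tubulin best known from neurons, was at 42.7, 25.3 and 36.5 FPKM on day 0 and 8.27, 8.60 and 7.26 FPKM on day 2 (log2 fold change -1.96, SE 0.29, adjusted p = 0.000266). CRYAB, a small heat shock protein that protects desmin filaments, was at 62.1, 109.5 and 99 FPKM on day 0 and 19, 15.6 and 28.5 FPKM on day 2 (log2 fold change -2.05, SE 0.25, adjusted p = 2.89e-05). None of these 4 overlapped between the days. CA4, a carbonic anhydrase on the cell surface, had 15.6, 18.2 and 19.6 FPKM on day 0 and 2.85, 1.86 and 4.05 FPKM on day 2 (log2 fold change -2.30, SE 0.20, adjusted p = 1.15e-06) and ADGRG1, an adhesion receptor coupled to G proteins, 3.90, 3.73 and 3.75 FPKM on day 0 and 0.765, 0.438 and 0.692 FPKM on day 2 (log2 fold change -1.56, SE 0.14, adjusted p = 1.15e-06). MEGF6, a protein with EGF-like repeats, was at 5.16, 5.10 and 5.38 FPKM on day 0 and 0.872, 0.915 and 1.16 FPKM on day 2 (log2 fold change -1.65, SE 0.25, adjusted p = 0.000281), and passed in all 6 fits with a library left out, as did the 6 genes before it. Outside the 12, LIMS2, a focal adhesion partner of integrin-linked kinase, was at 13.8, 14.6 and 18.3 FPKM on day 0 and 4.26, 3.5 and 7.36 FPKM on day 2 (log2 fold change -1.50, SE 0.28, adjusted p = 0.00223). LIMS2 passed in 3 of those 6 fits (adjusted p 0.00121 to 0.0213).

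Most genes of the cell cycle list had lower means on day 2 without a call. Of its 24 cell cycle and DNA replication genes, limma called 0 in either direction, 23 had a negative change (52.1% over all genes tested), 18 had non-overlapping libraries lower on day 2 (20.6%), and 13 had an unadjusted p under 0.05 (21.2%). The median was -0.51 on the log2 scale, against -0.01 over all genes. PLK1, a kinase of mitosis, was at 4.41, 3.63 and 4.37 FPKM on day 0 and 1.90, 1.73 and 1.72 FPKM on day 2 (log2 fold change -0.88, SE 0.12, adjusted p = 0.000125), past the limit on p but under that on size. AURKB, another mitotic kinase, and MCM5, a subunit of the replicative helicase, were in the same position at -0.80 (adjusted p = 0.00125) and -0.84 (adjusted p = 0.00712). CDC20, an activator of the anaphase-promoting complex, had 32.1, 23.9 and 30.7 FPKM on day 0 and 13.5, 13.7 and 14.5 FPKM on day 2 (-0.99, adjusted p = 0.0266). UBE2C, the ubiquitin-conjugating enzyme of that complex, stood outside the list and fell with 29.8, 30.4 and 35.2 FPKM on day 0 and 13.7, 13.9 and 14.7 FPKM on day 2 (log2 fold change -1.11, SE 0.24, adjusted p = 0.00576), a call lost whichever library was left out (adjusted p 0.0171 to 0.032). MYBL2, a transcription factor of dividing cells that was also outside the list and was noted after its value was seen, was called at -1.20. The list's median stayed between -0.59 and -0.40 over the fits with a library left out.

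Among 16 cell cycle inhibitors and p53 targets, SESN1 rose (0.328% over all genes) and GADD45A and SESN2 fell (0.459%), so the sestrins, which restrain mTORC1 under stress, moved apart. SESN1 was at 5.28, 5.27 and 4.13 FPKM on day 0 and 16.9, 16.3 and 13.2 FPKM on day 2 (log2 fold change 1.48, SE 0.22, adjusted p = 0.000269) and SESN2 at 31.3, 30.7 and 37.0 FPKM on day 0 and 15.5, 12.5 and 16.5 FPKM on day 2 (log2 fold change -1.11, SE 0.25, adjusted p = 0.0079). GADD45A, a DNA damage and stress response gene, was at 78.3, 76.1 and 84.0 FPKM on day 0 and 32.5, 31.3 and 33.8 FPKM on day 2 (log2 fold change -1.26, SE 0.22, adjusted p = 0.0014). All 3 had groups that did not overlap. SESN2 lost its call whichever library was left out (adjusted p 0.0168 to 0.0498). CDKN1A, the p53-driven inhibitor p21, was at 184, 195 and 227 FPKM on day 0 and 167, 192 and 170.3 FPKM on day 2 (-0.19, adjusted p = 0.556), with overlapping groups. DDIT3 (CHOP) and CHAC1, both targets of the amino acid and unfolded protein response as SESN2 is, had -1.71 (adjusted p = 0.0358) and -1.49 (adjusted p = 0.0758), and 0 of the 14 genes of their list were called, with 2 higher and 5 lower at an unadjusted p under 0.05 (21.2% over all genes in either direction).

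Glycolysis and hypoxia genes were lower on day 2 in each of 20 members tested, of which 18 did not overlap between the days and 12 had an unadjusted p under 0.05. Over all genes tested these shares were 52.1% below 0, 20.6% lower without overlap and 21.2% at that p in either direction. The limma fit called 0, and the median was -0.52. LDHA, which turns pyruvate into lactate, was at 518, 540.1 and 557 FPKM on day 0 and 367, 403 and 349 FPKM on day 2 (-0.53, adjusted p = 0.112), and ALDOA, the muscle-type aldolase, at 159.5, 195 and 261 FPKM on day 0 and 85.9, 137 and 93.9 FPKM on day 2 (-0.95, adjusted p = 0.0597). PFKP, a phosphofructokinase, was at 41.9, 36.2 and 45.6 FPKM on day 0 and 25.3, 23.5 and 25.4 FPKM on day 2 (log2 fold change -0.71, SE 0.16, adjusted p = 0.00858) and was the 1 member past the limit on p. The median was -0.50 and -0.47 when the libraries were rescaled by median ratio and by quantiles.

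The master regulators of adipogenesis did not pass the test by day 2. PPARG, the central factor, was at 0.425, 0.147 and 0.195 FPKM on day 0 and 0.428, 0.400 and 0.591 FPKM on day 2 (0.23, adjusted p = 0.735), so that it stayed under 1 FPKM in all 6 libraries. CEBPA, its partner, had 1.58, 2.06 and 1.62 FPKM on day 0 and 2.85, 3.30 and 2.52 FPKM on day 2 (0.50, adjusted p = 0.226), and CEBPB, the early inducer, 9.38, 9.57 and 12.7 FPKM on day 0 and 11.8, 16.5 and 8.24 FPKM on day 2 (0.15, adjusted p = 0.814). The groups of CEBPA did not overlap, while those of PPARG and CEBPB did. EBF2, a factor of committed and brown preadipocytes, was the 1 rise among 18 adipogenic factors tested (0.328% over all genes), with 6.71, 7.19 and 4.96 FPKM on day 0 and 13.9, 15.3 and 13.6 FPKM on day 2 (log2 fold change 1.08, SE 0.21, adjusted p = 0.00261) and a call that held in 3 of the 6 fits with a library left out (adjusted p 0.00549 to 0.0204). KLF2, a repressor of PPARG, had 1.86, 0.963 and 1.35 FPKM on day 0 and 0.322, 0.300 and 0.162 FPKM on day 2 (-0.91, adjusted p = 0.00223), past the limit on p but not that on size. The median of the list was 0.07, and 0.04 without IMF-0d replicate 2.

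Of the 23 adipocyte genes in the table, 10 stayed under 1 FPKM in all 6 libraries, and the list summed to 110.3 to 119 FPKM on day 0 and 116 to 120.5 FPKM on day 2. FABP4, the fatty acid carrier, was listed at 0 in 5 of the 6 libraries and PLIN1, the coat of the lipid droplet, did not exceed 0.0376 FPKM. LPL, which frees fatty acids for uptake, was at 1.18, 1.18 and 0.822 FPKM on day 0 and 1.86, 3.62 and 1.86 FPKM on day 2 (0.71, adjusted p = 0.543), with replicate 2 of day 2 highest. AGPAT2, an enzyme of triglyceride synthesis, was the 1 call among 18 adipocyte genes tested (0.787% over all genes) and fell, with 8.88, 8.72 and 11.7 FPKM on day 0 and 3.96, 3.63 and 4.50 FPKM on day 2 (log2 fold change -1.09, SE 0.14, adjusted p = 5.12e-05), and the change was -0.97, adjusted p = 0.000569 without IMF-0d replicate 3. AGT, angiotensinogen, GK, glycerol kinase, and CAT, catalase, did not pass: AGT was at 1.74, 1.44 and 2.39 FPKM on day 0 and 0.761, 0.880 and 0.720 FPKM on day 2 (-0.66, adjusted p = 0.061). GK was at 2.36, 2.48 and 2.35 FPKM on day 0 and 3.32, 4.51 and 3.31 FPKM on day 2 (0.46, adjusted p = 0.574) and CAT at 25, 25.3 and 21.8 FPKM on day 0 and 31.5, 29.7 and 28.3 FPKM on day 2 (0.30, adjusted p = 0.748), both without overlap between the days. Of 11 genes of fatty acid synthesis 0 were called, with 2 at an unadjusted p under 0.05 (21.2% over all genes) and a median of -0.14. Of 20 genes of cholesterol synthesis and uptake 0 were called, with 1 at an unadjusted p under 0.05 (21.2% over all genes) and a median of -0.13.

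The list of 17 chemokines and cytokines, which holds neither AMCF-II nor TNFSF18, gave no call. IL6, the cytokine, was at 7.29, 5.73 and 6.79 FPKM on day 0 and 26.3, 58.9 and 19.1 FPKM on day 2 (2.08, adjusted p = 0.0229) and CXCL2, a neutrophil chemokine, at 7.48, 6.71 and 6.24 FPKM on day 0 and 29, 52.2 and 20.3 FPKM on day 2 (2.06, adjusted p = 0.0441). In both, replicate 2 of day 2 was well above the other libraries of its day, and the groups did not overlap. Over the 17 genes limma called 0, with 4 higher and 3 lower at an unadjusted p under 0.05 and a median of 0.21. Across all genes tested 21.2% had such a p in either direction, the share to set beside this list and those that follow. The 18 interferon-stimulated genes had 0 calls, 0 at an unadjusted p under 0.05 and a median of -0.03. The 16 CCN family and YAP/TAZ targets had 0 calls, 1 higher and 7 lower at an unadjusted p under 0.05, and a median of -0.39, with CCN2 (connective tissue growth factor) at 182, 143 and 159.8 FPKM on day 0 and 196, 105 and 196 FPKM on day 2 (-0.02, adjusted p = 1). The 16 mitochondrial and antioxidant genes had 0 calls, 4 at an unadjusted p under 0.05 and a median of -0.10. With 1 intramuscular library left out, the median ranged from -0.14 to -0.07 for fatty acid synthesis, from -0.17 to -0.08 for cholesterol, from -0.19 to 0.02 for interferon-stimulated and from -0.17 to 0.01 for mitochondrial genes. Over all 26 lists, 31 of 455 distinct members tested were called, where 0.787% of all genes were, and the lists were written with earlier results of these data known.

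**Figure D2:**
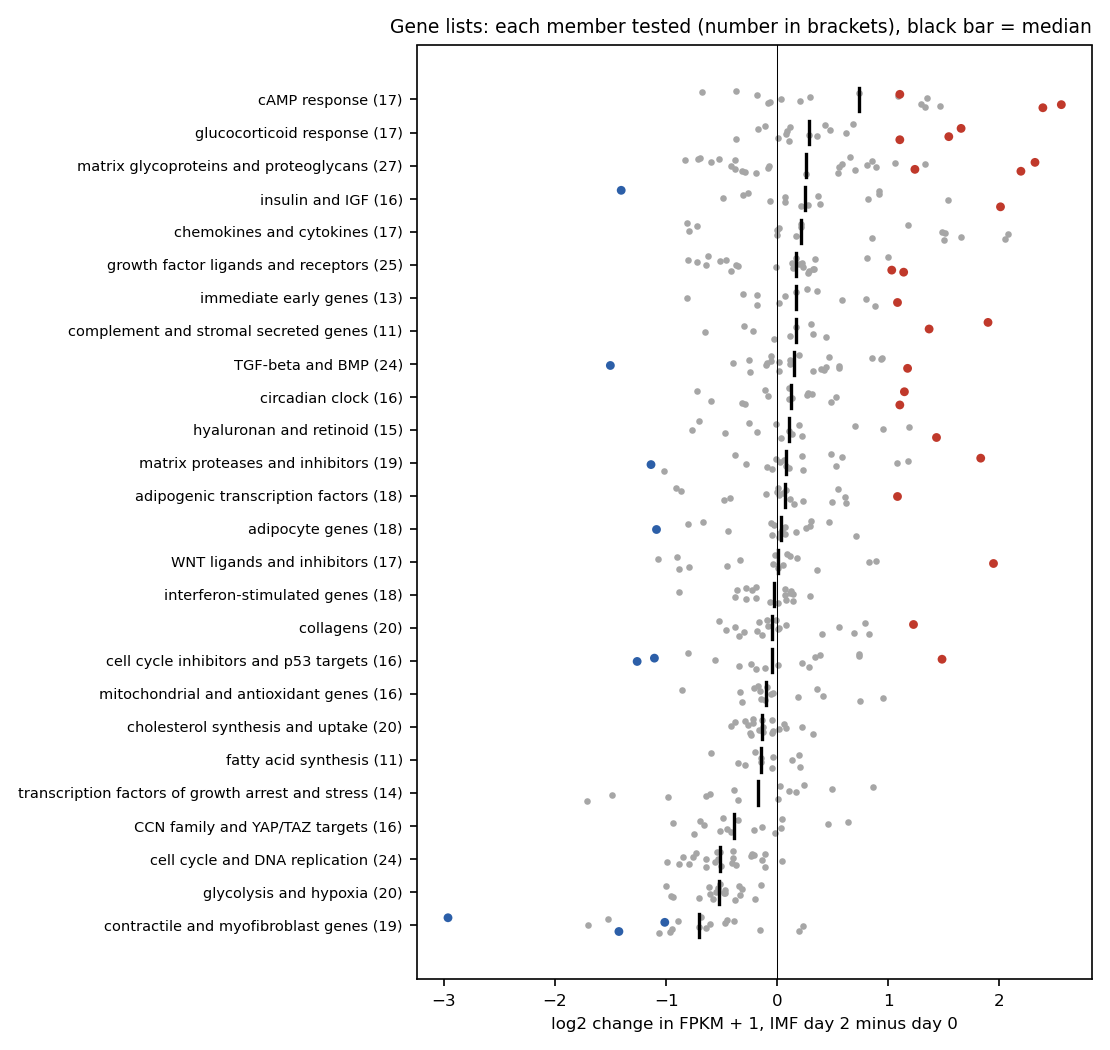
Log2 change in FPKM + 1 from day 0 to day 2 in intramuscular cells (horizontal axis) of each tested member of the 26 gene lists (vertical axis, number tested in brackets). Red points are members called higher, blue points members called lower, grey points members not called, and black bars the list medians, which run from -0.70 for contractile genes to 0.74 for the cyclic AMP response list.

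The subcutaneous cells went through the same 2 days in the same media, and their comparison shares no library with the intramuscular one. It gave 1063 calls (6.59%), 438 higher (2.71%) and 625 lower (3.87%), with a median log2 fold change of -0.04 over all genes. The difference between the depots was tested as an interaction, the intramuscular change minus the subcutaneous change, which was called for 395 genes (2.45%), 199 positive (1.23%) and 196 negative (1.21%). Among the 127 genes called in intramuscular cells the interaction was called for 21, and 114 of the 127 had a subcutaneous change of the same sign. PDE4B had a subcutaneous log2 fold change of 3.49 (interaction -0.94, SE 0.49, adjusted p = 0.202), CRISPLD2 1.57 (interaction 0.09, SE 0.28, adjusted p = 0.879) and FLNC -1.51 (interaction -0.00, SE 0.32, adjusted p = 1). An interaction that misses the limit does not show equal changes, as the SE of PDE4B shows. BF-2d replicate 3 weighed on this test, and without it 1182 interactions were called.

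**Figure D3:**
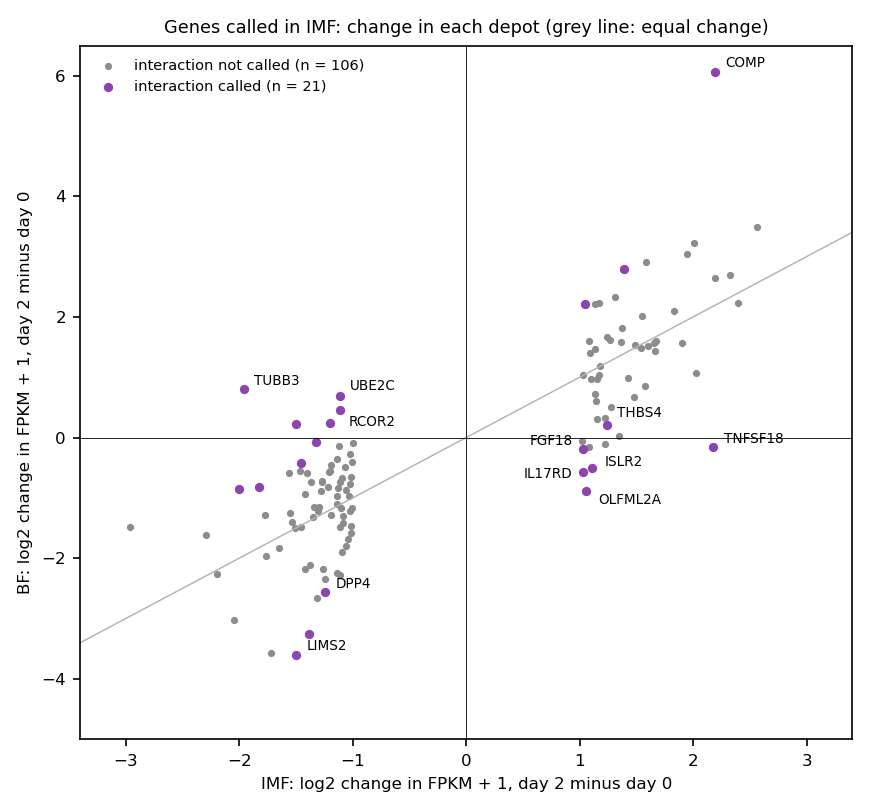
Log2 change in FPKM + 1 from day 0 to day 2 in intramuscular cells (horizontal axis) and in subcutaneous cells (vertical axis), 1 point for each of the 127 genes called in intramuscular cells. Purple points are the 21 genes with the interaction called and the grey line marks equal change; COMP lies far above the line and TNFSF18, near 0 in subcutaneous cells, below it.

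TNFSF18 differed most among the positive interactions of genes that rose. Its subcutaneous values were 0.349, 0.433 and 0.555 FPKM on day 0 and 0.143, 0.128 and 0.681 FPKM on day 2 (log2 fold change -0.16, adjusted p = 0.602), where the groups overlapped, and the interaction was 2.33 (SE 0.28, adjusted p = 7.04e-05). COMP rose in both depots, from a far lower start in subcutaneous cells at 3.29, 3.59 and 3.16 FPKM on day 0 and 427, 492 and 116 FPKM on day 2, so that the interaction was -3.87 (SE 0.65, adjusted p = 0.0011). The subcutaneous day 2 level of COMP was lowest in replicate 3. Without that library the interactions of TNFSF18, COMP and TUBB3 were 2.52, -4.53 and -2.40. TUBB3 fell in intramuscular cells and was at 1.51, 1.78 and 1.79 FPKM on day 0 and 2.68, 2.64 and 6.6 FPKM on day 2 in subcutaneous cells (interaction -2.76, SE 0.41, adjusted p = 0.000514). THBS4, FGF18, OLFML2A, ISLR2 and IL17RD rose in intramuscular cells with interactions of 1.04, 1.22, 1.94, 1.61 and 1.598, and had subcutaneous changes of 0.20, -0.19, -0.89, -0.50 and -0.57. The intramuscular rises of ISLR2 (adjusted p 0.0134 to 0.0288) and IL17RD (adjusted p 0.0177 to 0.054) were lost whichever intramuscular library was left out, and that of OLFML2A held in 1 of 6 such fits (adjusted p 0.0017 to 0.0322). IL17RD is an inhibitor of FGF signalling, of which FGF18 is a ligand.

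Among the falls, UBE2C and RCOR2, a transcriptional corepressor, had interactions of -1.80 and -1.57, with positive subcutaneous changes of 0.68 and 0.46 that were not called. DPP4 and LIMS2 fell in both depots and further in subcutaneous cells, with changes of -2.57 and -3.60 there (interactions 1.32 and 2.10). Other genes had a called interaction without a call in the muscle. CCN2 had an intramuscular change of -0.02 and subcutaneous values of 274, 382 and 375 FPKM on day 0 and 3.34, 4.76 and 31.3 FPKM on day 2 (interaction 5.18, SE 0.72, adjusted p = 0.000319). DDIT4 (REDD1), a glucocorticoid and hypoxia target that inhibits mTORC1, was at 121, 122 and 129 FPKM on day 0 and 88.0, 115 and 89.6 FPKM on day 2 in intramuscular and 46.5, 48.3 and 51.0 FPKM on day 0 and 642, 695 and 254 FPKM on day 2 in subcutaneous cells (interaction -3.64, SE 0.37, adjusted p = 9.5e-06). FASN, fatty acid synthase, had -0.05 in intramuscular and 1.15 in subcutaneous cells (interaction -1.20, SE 0.17, adjusted p = 0.000357).

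The depots differed in the glycolysis genes. In subcutaneous cells 13 of the 20 were called higher (2.71% over all genes), with a median of 1.14, and the interaction was called for 12 (2.45% over all genes), with a median of -1.61. LDHA was at 261, 272 and 276 FPKM on day 0 and 691, 938 and 379 FPKM on day 2 in subcutaneous cells (interaction -1.74, SE 0.28, adjusted p = 0.000766), and ALDOA at 90.8, 107 and 105 FPKM on day 0 and 347, 431 and 138 FPKM on day 2 (interaction -2.39, SE 0.43, adjusted p = 0.00178). The number of interactions called was 11 to 17 over the fits with a library left out, 17 without BF-2d replicate 3, and 1 when only the 12 libraries of the groups compared were fitted. Cell cycle genes had a subcutaneous median of 0.29 against -0.51 in intramuscular cells, and the interaction was called for 4 of 24 (2.45% over all genes). These were MCM7, MCM5, PLK1 and CDC20, at -1.27, -1.17, -1.10 and -1.68. Of the contractile genes, 16 of 19 were called lower in subcutaneous cells (3.87% over all genes), with a median of -1.83, and 3 interactions were called. CEBPA and CEBPB had subcutaneous changes of 1.67 and 1.53, both called there, with interactions of -1.17 (adjusted p = 0.0242) and -1.38 (adjusted p = 0.0142) that were not.

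**Figure D4:**
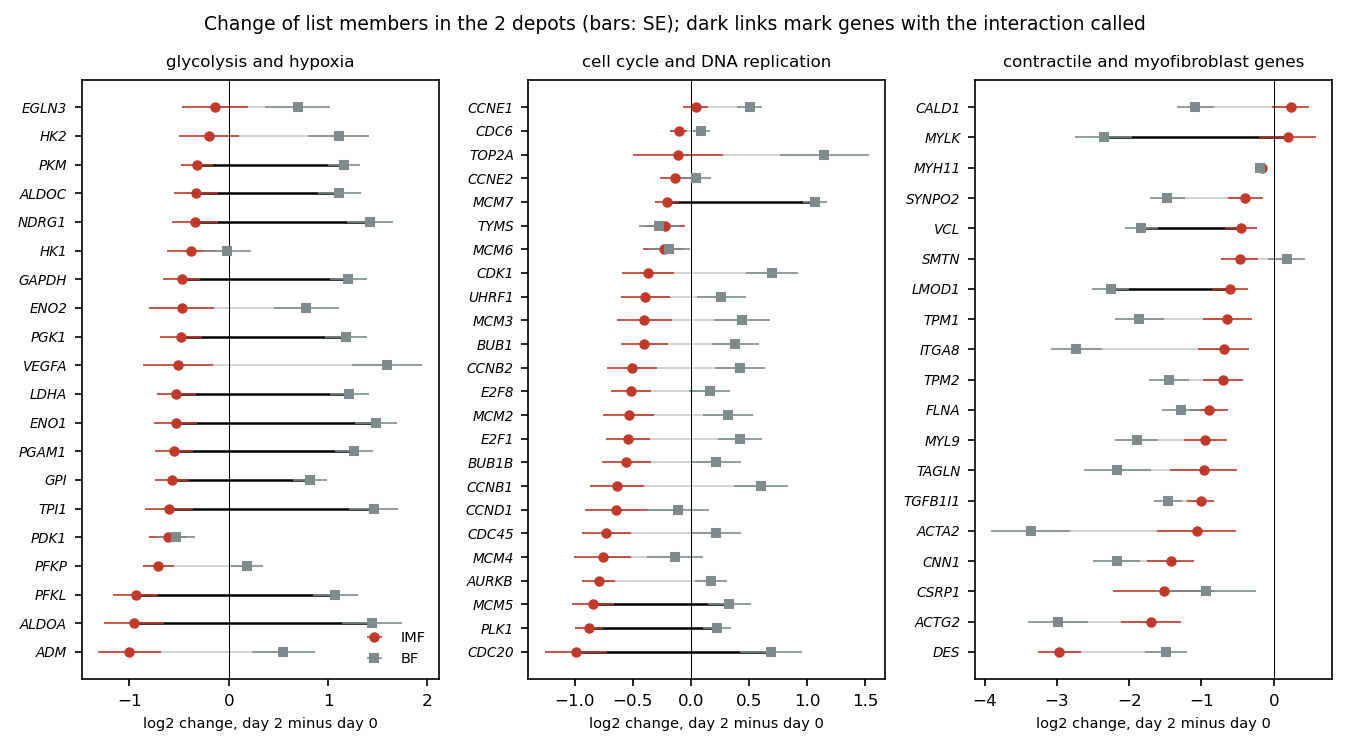
Log2 change in FPKM + 1 from day 0 to day 2 (horizontal axes) of the members of 3 lists (vertical axes) in intramuscular cells (red circles) and subcutaneous cells (grey squares), with bars of 1 SE from limma. Dark links mark the genes with the interaction called, 12 of 20 in the glycolysis list, 4 of 24 in the cell cycle list and 3 of 19 in the contractile list.

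The later intramuscular days are given side by side, since each comparison shares libraries with the next. From day 2 to day 4, after IBMX and dexamethasone had been taken out of the medium, 6 genes (0.0372%) were called, and from day 4 to day 8, 1169 (7.25%). NR4A1 stood at 5.41 ± 0.642 FPKM on day 4 and 55.1 ± 7.31 FPKM on day 8 (SD, n = 3), so that its day 4 level was near that of day 0. HAS2 had a day 4 level of 4.07 ± 0.494 FPKM, near that of day 0, with a called change from day 2 of -1.44. AMCF-II was at 89.8 ± 7.52 FPKM on day 4 and 856 ± 167 FPKM on day 8. PDE4B was at 16.3 ± 3.82 and 30.1 ± 11.8 FPKM, SGK1 at 24.8 ± 1.68 and 25.3 ± 4.20, and CRISPLD2 at 27.7 ± 1.33 and 41.2 ± 1.41. FBLN1 stood at 85.4 ± 6.86 and 105 ± 7.59 FPKM, and PENK at 3.36 ± 0.431 FPKM on day 4 and 73.6 ± 9.37 FPKM on day 8. THBS4 had a further change of 0.77 on the log2 scale from day 2 to day 4 (adjusted p = 0.00318), under the limit on size.

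The falls also parted after day 2. DES was at 11.7 ± 1.6 FPKM on day 4, above each day 2 library, and at 1.68 ± 0.484 FPKM on day 8. CRYAB was at 25.6 ± 4.66 and 75.4 ± 14.1 FPKM, the latter mean within the range of day 0. FLNC, CA4 and RHOB stayed below their day 0 levels, at 14.5 ± 2.57, 1.65 ± 0.251 and 12 ± 1.23 FPKM on day 8. CNN1 was at 23.1 ± 1.57 FPKM on day 4 and 2.81 ± 0.472 FPKM on day 8. PPARG remained low at 0.854 ± 0.411 and 0.123 ± 0.107 FPKM, and LPL was at 5.50 ± 0.884 FPKM on day 4 and 120.4 ± 24.3 FPKM on day 8.

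**Figure D5:**
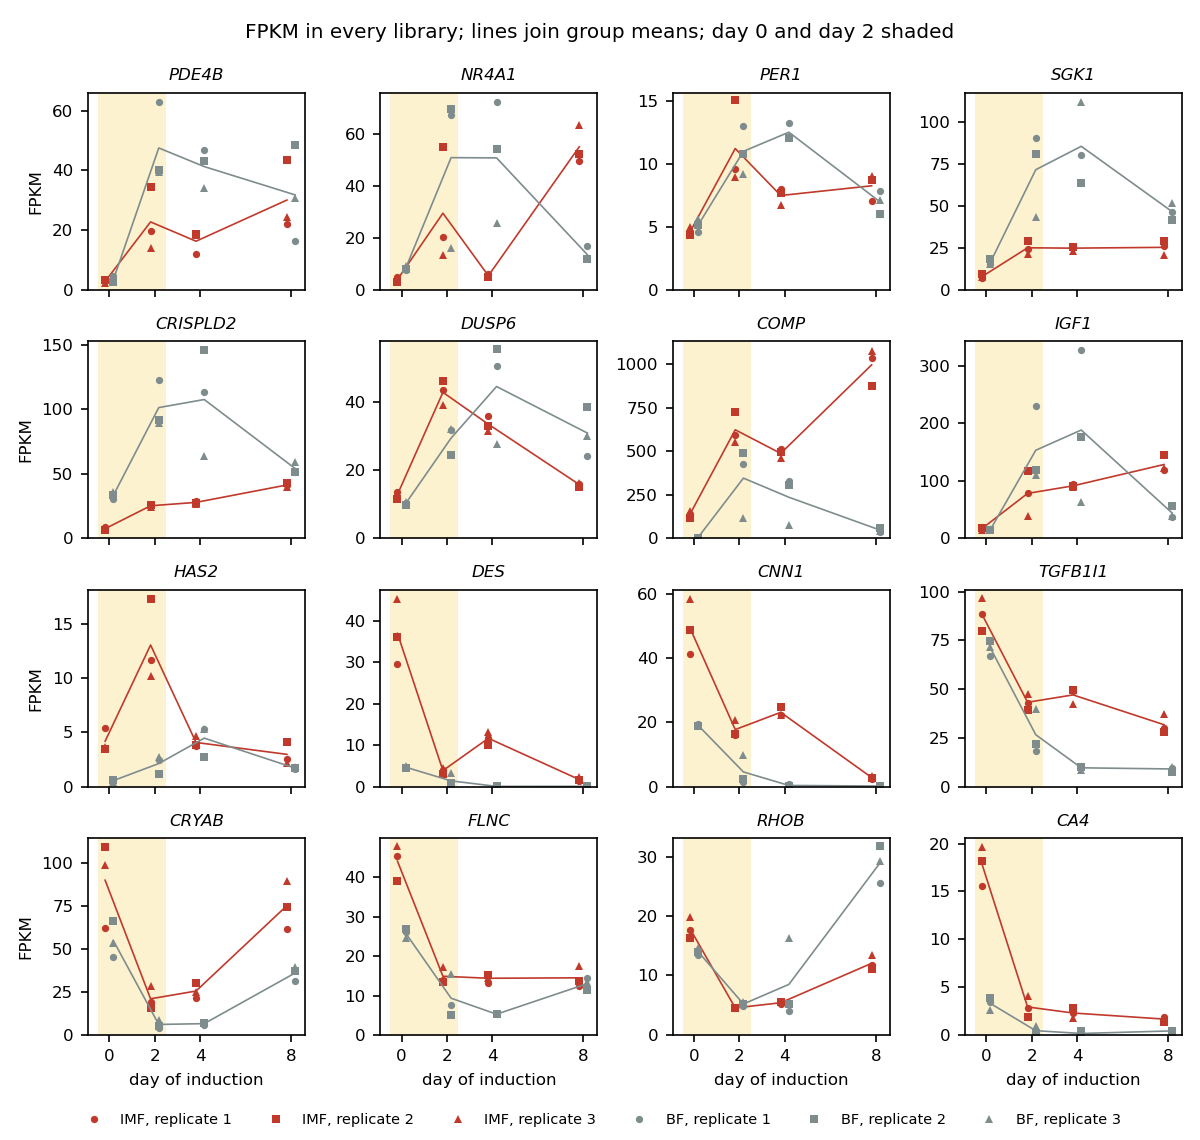
FPKM (vertical axes) of 16 genes by day of culture (horizontal axes, days 0, 2, 4 and 8) in each intramuscular library (red) and subcutaneous library (grey), with 1 marker shape per replicate number and lines through the group means. In the shaded span from day 0 to day 2 the first 9 genes rise and the last 7 fall in intramuscular cells, and the day 2 square (replicate 2) is the highest intramuscular point of that day for each rising gene shown except CRISPLD2.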

How the data were processed

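The authors sequenced RNA as paired reads, mapped it to Sscrofa11.1 with HISAT2 and, per the labels and their methods, computed FPKM with StringTie 1.3.4d for 25462 genes, 21271 with Ensembl IDs and 4191 assembled. The deposited FPKM have library size and transcript length divided out. The authors' own test, DESeq2 1.6.3, takes counts and was not run here. FPKM keep no depth, and too few low values stood on shared whole-read steps to recover it.

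Genes whose FPKM summed to more than 1 over 24 libraries (16135) were fitted as log2(FPKM + 1) with limma 3.58.1 in R 4.3.3, with 1 mean per group in all 24 libraries and robust eBayes with a trend, and the 8 groups shared an estimate of spread. Genes were called at an adjusted p under 0.01 and a log2 change of 1 or more in size, as in the study. The pseudocount of 1 understates changes of low genes. The fit was tested on simulated data.

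Genes named are the 12 largest rises and falls with a symbol, non-overlapping libraries and 1 FPKM or more as the mean of either day, called list members (or, where fewer than 3 were called, the first 3 written), AGT, GK and CAT, and called genes with the 5 largest interactions of each sign. Other list members, CCN2, DDIT4 and FASN among them, were named after their values were seen, as were the printed promoters. The 26 gene lists, 7 marker lists and the comparison itself were chosen with earlier results of these data known. 1 member is counted but not reported here. Of 587 symbols, 528 matched the table. Alternatives changed the pseudocount, filter, scaling, libraries fitted and moderation, or added a replicate block.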

Additional observations from a re-analysis of the deposited data

Results flagged for a closer look

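The change from day 0 to day 2 differed between the depots, by limma's interaction test, for 17 of the genes that met the naming rules or were written first in their lists. Values are the intramuscular minus the subcutaneous change on the log2 scale. Further list members with called interactions given above, such as LDHA, ALDOA, MCM7, MCM5, PLK1 and CDC20, are not among the 17. Of the 17, the difference was positive for CCN2 (5.18), TNFSF18 (2.33), LIMS2 (2.10), OLFML2A (1.94), ISLR2 (1.61), IL17RD (1.598), CCN1 (1.57), DPP4 (1.32), FGF18 (1.22) and THBS4 (1.04). It was negative for COMP (-3.87), DDIT4 (-3.64), TUBB3 (-2.76), UBE2C (-1.80), RCOR2 (-1.57), GPI (-1.39) and FASN (-1.20). Over the 12 fits that left out 1 library, 13 of the 17 kept the call in every fit. THBS4 kept it in 10, ISLR2 and IL17RD in 6 each and CCN1 in 2, with adjusted p of up to 0.0218 for CCN1. With only the 12 libraries of the groups compared fitted, FGF18, GPI, DPP4, LIMS2, CCN1, ISLR2 and IL17RD missed the limit on p (adjusted p 0.0121 to 0.0295), and with a replicate block added to that fit all 17 did. With a pseudocount of 0.1 the calls of THBS4 (0.53, adjusted p = 0.374), FGF18, LIMS2, ISLR2 and IL17RD were lost, and with 0.5 that of THBS4 (0.92, adjusted p = 0.01003). ISLR2 and IL17RD also lost the call with a replicate block across 24 libraries, and CCN1 without a filter on low values. CCN1, a matrix protein of the CCN family, had an intramuscular change of -0.75 and a subcutaneous change of -2.32, and GPI, the second enzyme of glycolysis, changes of -0.57 and 0.82.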

How the results depend on the processing

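The 127 calls became 194 with only the 12 intramuscular libraries fitted and ranged from 69 to 166 with 1 library left out, 69 without IMF-2d replicate 2, 81 without IMF-0d replicate 3 and 166 without BF-2d replicate 3. Under the other settings, apart from 1 with a replicate block given below, they numbered 104 (no filter) to 185 (pseudocount 0.1). The 31 list members called became 50 with 12 libraries and 13 to 42 with 1 left out (13 without IMF-2d replicate 2, 15, 19 and 20 without IMF-0d replicate 3, IMF-2d replicate 1 and IMF-0d replicate 2), and the 24 leading rises and falls kept 16 to 24 calls. The 395 interactions became 132 with only the 12 libraries of the 4 groups compared, and 193 to 1182 with 1 library left out. They numbered 1182 without BF-2d replicate 3, 193 without IMF-0d replicate 3, 215 to 248 without IMF-0d replicate 1, IMF-2d replicate 1 or 3, any BF-0d library or BF-2d replicate 2, and 309 to 332 without BF-2d replicate 1, IMF-0d replicate 2 or IMF-2d replicate 2. Same-numbered libraries of the 2 groups deviated together at r of -0.0174 to 0.123 and others at -0.107 to 0.0171, short of the 0.1 in every pair required to treat them as paired. Replicates 1 and 3 but not replicate 2 correlated best with their own number, the labels do not say what a number marks, and whether the libraries are paired is unknown. With a replicate block the fit across 24 libraries gave 122 calls and 299 interactions. The intramuscular calls of COL12A1, CNN1, UBE2C, ISLR2 and IL17RD were among those lost with it. The block with only the compared libraries, which leaves 2 residual degrees of freedom for 6, gave 0 calls in limma (smallest adjusted p 0.0132, 4492 genes at an unadjusted p under 0.05), 0 list members, 0 leading genes and 0 interactions (smallest adjusted p 0.0247, 4226 genes at an unadjusted p under 0.05). Rises were 41.7% of calls, 45.8% with median ratio scaling, 48.5% with quantile normalization and 33.5% with a pseudocount of 0.1. Among 2544 outcomes for single named genes over these alternatives, 2240 kept direction and side of the limit, 293 lost the call, 11 gained one and 0 reversed. The cause of these shifts was not tested. FPKM hide depth, so counting error at low values is unknown, and 3 libraries a group limit the precision.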

Other observations

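Beyond the lists described above, 2 small groups drew attention after the values were seen, and their counts are descriptions only. Feedback inhibitors and targets of ERK signalling, the kinase cascade below growth factor receptors, were higher on day 2 in 10 of 12 members tested, with a median log2 fold change of 0.64 and 3 calls, DUSP6, SPRY2 and IL17RD, where 0.328% of all genes were called higher. SPRY2, an inhibitor of receptor tyrosine kinase signalling, was at 4.77, 4.37 and 5.33 FPKM on day 0 and 11.3, 11.7 and 12.4 FPKM on day 2 (log2 fold change 1.14, SE 0.24, adjusted p = 0.00619), without overlap. SPRY4 and SPRY1, of the same family, had changes of 0.86 (adjusted p = 0.0225) and 0.76 (adjusted p = 0.0261), and DUSP4, a nuclear phosphatase of the cascade, 1.26 (adjusted p = 0.0952). Without IMF-0d replicate 3, or without IMF-2d replicate 2, 1 of the 12 was called.

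Intermediate filament genes were lower in 7 of 8 tested, with a median of -0.74 and 3 falls, where 0.459% of all genes were called lower. Besides DES these were NES, nestin, at 22, 22.7 and 18.1 FPKM on day 0 and 9.25, 8.69 and 11.3 FPKM on day 2 (log2 fold change -1.03, SE 0.20, adjusted p = 0.00357), and SYNC, syncoilin, a partner of desmin, at 16.9, 16.8 and 14.4 FPKM on day 0 and 6.45, 5.53 and 8.33 FPKM on day 2 (log2 fold change -1.14, SE 0.21, adjusted p = 0.0018). Neither overlapped between the days. VIM, vimentin, the main filament of stromal cells, and LMNA, the lamin of the nuclear envelope, had changes of -0.55 (adjusted p = 0.0758) and -0.82 (adjusted p = 0.0511). Without IMF-0d replicate 3 there were 3 calls, and without IMF-2d replicate 2 there was 1.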
